A study of Mus musculus with 12 samples.

Results

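This is the ventilation response of the mouse lung taken over both genotypes of a knockout study, with all 6 ventilated arrays set against all 6 arrays of spontaneously breathing mice. All 12 arrays of the series enter it, and genotype enters as a factor, so that the value of a gene is the mean of its differences in wild-type and in knockout mice. Averaging over the genotypes puts 6 arrays on each side of the comparison in place of 3, and the account below turns on the smaller differences that this resolves. All 12309 genes past a filter on dim signals were tested, each through its brightest probe set.

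The mice were male C57BL/6 animals of 8 to 12 weeks, either wild type or nmMLCK-/-, which lack the long product of Mylk, a myosin light chain kinase of non-muscle cells. In each genotype 3 samples came from spontaneous breathing (SB) and 3 from ventilation for 4 h at a high tidal volume to cause ventilator-induced lung injury (VILI). The tidal volume is given as 40 ml/kg with the samples and as 30 ml/kg with the series, with a rate of 65 breaths per min and no positive end-expiratory pressure (0 cm H2O). There was no group ventilated at a low tidal volume, so stretch, ventilation as such and the rest of the procedure cannot be told apart. Total RNA of lung was hybridised to Affymetrix whole-genome mouse arrays, which report a log2 signal for each probe set, a group of short probes to one transcript.

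Mechanical ventilation stretches the airspaces cyclically. Stretch is known to reach cells through the actin cytoskeleton and the transcription factors SRF and YAP, through the MAP kinases that induce AP-1 and EGR factors, and through NF-kB, whose targets include the cytokine Il6 and its own inhibitors. Cells that enter an acute response of this kind commonly raise ribosome production and glucose use, while programs of differentiated cells, such as cilia, detoxification and fat oxidation, are often expressed less. In whole lung, fewer cells of a type and less RNA per cell cannot be told apart, and this holds for each value below.

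Correlations between arrays over all probe sets ran from 0.9806 to 0.9979, and 51.7% of the variance of the tested genes lay on a component that separated VILI from SB. Among SB arrays, replicate 3 of wild type and replicate 2 of the knockout stood apart from the other 4 on the second component, which held 17.1%, at 33.2 and 20.2 against -12.4 to -26.2. Sox11 set wild-type SB replicates 1 and 2, at log2 signals of 3.66 and 3.60, apart from the other 10 arrays, at 7.14 to 9.28, and did not differ for the mean (0.39 ± 0.84, adjusted p = 0.739). Mylk, read by 3 probe sets, did not pass for VILI minus SB (-0.29, 0.25 and -0.10, adjusted p of 0.524, 0.308 and 0.183). The knockout values of each Mylk probe set overlapped those of wild type, and which product of the gene these probe sets detect is not given here, so Mylk does not check the genotype labels. Among markers of lung cell types, 8 of 8 tested alveolar type 2 genes did not pass, with a summed log2 level of 17.71 to 17.84 in SB and 17.69 to 17.83 after VILI. Of 13 tested neutrophil markers 12 rose, and their summed level ran from 13.29 to 15.60 in SB, the highest in wild-type SB replicate 3, and from 15.38 to 16.18 after VILI.

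Ventilation changed 4520 of the 12309 genes, or 36.7%, at an adjusted p under 0.05. Of these 1739 rose (14.1% of the genes tested) and 2781 fell (22.6%). Most of the changes were modest: 2719 of the called genes, or 60.2%, differed by less than 1.5-fold, 584 by 2-fold or more, and the median size was 0.51 on the log2 scale. The median over all tested genes was -0.05. All 6 VILI arrays lay outside the range of the 6 SB arrays in 2202 genes (17.9%), of which 2152 were called.

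The gain over a single genotype can be counted. In wild type alone, 3 arrays against 3, 1892 genes passed (15.4%), and in the knockout alone 2554 (20.7%). Both of these tests used a spread estimated over all 12 arrays, not over 1 genotype. Over both, 1455 genes passed that had passed in neither genotype by itself, 11.8% of the genes tested, of which 520 rose and 935 fell. Of them 1134, or 77.9%, differed by less than 1.5-fold, and their median size was 0.39. The standard error of a log2 difference had a median over genes of 0.104 with both genotypes and 0.148 within one. Since both use the same spread of each gene, this gap follows from the number of arrays alone. In the other direction, 136 genes passed in a genotype and not for the mean.

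The genotypes share no array, so the sign of a difference in one does not enter that in the other. Their calls are not independent, since the spread of each gene was estimated over all 12 arrays. Of the 1892 genes called in wild type, 1867 (98.7%) had a difference of the same sign in the knockout, and of the 2554 called in the knockout 2489 (97.5%) had it in wild type. Among the calls of less than 1.5-fold these shares were 656 of 672 (97.6%) and 946 of 983 (96.2%). Over all 12309 genes the share was 80.6%. The difference between the responses themselves passed limma's test in 0 genes, or 0% (smallest adjusted p = 0.244), with 619 genes, or 5.03%, at an unadjusted p under 0.05 and 323, or 7.15%, among the called genes. The confidence interval of that difference reached a median of 0.46 log2 to either side, so that for a typical gene genotype differences smaller than this could not be resolved. Without the 2 SB arrays that stood apart, 9 genes passed for the difference of the responses, and 6 did without wild-type SB replicate 3 alone.

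**Figure D1:**
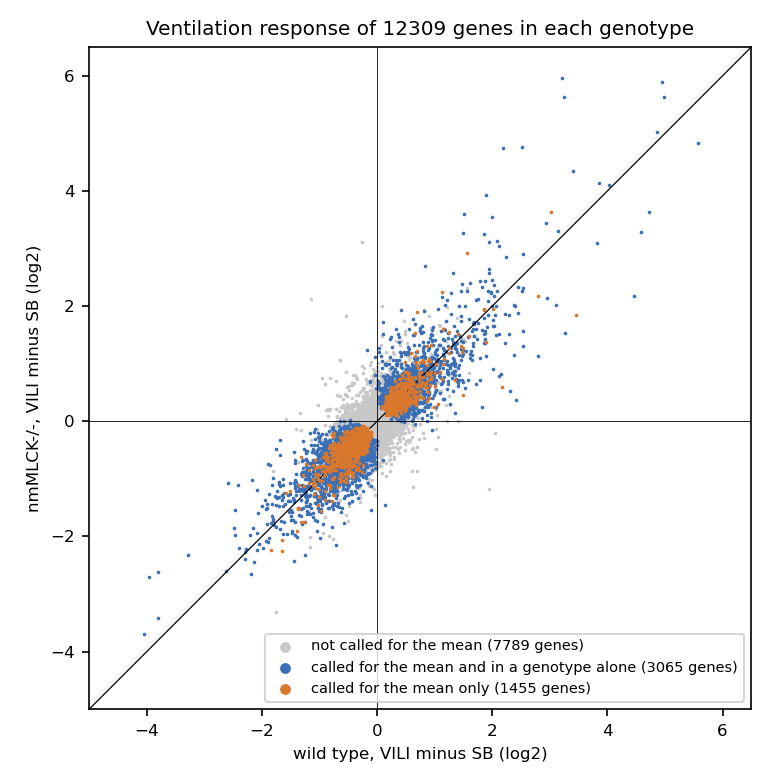
Each point is 1 of 12309 genes, placed by its VILI minus SB difference in wild type (horizontal, log2) and in nmMLCK-/- mice (vertical, log2), with the line of equal response. Called genes lie along that line where both differences have the same sign, and the 1455 genes that needed both genotypes lie mostly close to the centre.

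The largest changes set the scale. Il1r2, a decoy receptor that binds interleukin 1, had log2 signals of 1.76, 4.01 and 5.84 (lowest, median and highest of 6 arrays) in SB and 8.57, 9.30 and 10.46 after VILI, a rise of 5.42 ± 0.59 (standard error; adjusted p = 0.000168). Dio2, which activates thyroid hormone, ran from 2.83 to 4.34 in SB and from 7.03 to 8.57 after VILI and rose by 4.18 ± 0.22 (adjusted p = 4.34e-06). The sets of 6 did not overlap in either gene. Cldn4, a tight junction gene, Apold1, a gene of activated endothelium, Krtap17-1, the neutrophil collagenase Mmp8, the transcription factor Nfil3, the protease Prss22, the hyaluronan synthase Has1 and the myeloid lectin Clec4d completed the 10 largest rises among genes whose arrays did not overlap and whose group means lay over the filter level of 3.056, at 5.30, 5.2, 4.94, 4.59, 4.07, 3.99, 3.93 and 3.64. Il6 rose by 5.66, but its SB arrays, at 2.06 to 2.13, lay under that level, so this size is not measured. Il1r2, Dio2, Cldn4, Mmp8, Nfil3, Prss22 and Has1 also had at least 1 SB array under it, so their sizes are uncertain. Cldn4 stood at 2.64 and 3.15 in the SB arrays that stood apart and at 5.23 to 8.26 in the other SB arrays. The 10 largest falls, chosen in the same way, ran from -3.86 for Ankrd63 to -2.28 for Fam13a and took in Zfp467 (-3.61), the clock output factor Dbp (-2.80), Tekt4 (-2.42), a protein of the ciliary axoneme, and Tppp (-2.28).

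Among genes called for the mean but in neither genotype alone, 224 differed by less than 1.5-fold and still had all 6 VILI arrays outside the SB range, 100 of them higher and 124 lower. The 12 of each direction with the smallest p are named here, and the rule by which they were picked favours genes with a like difference in both genotypes. Their adjusted p ran from 0.00708 to 0.00978, while within a genotype the smallest adjusted p of any of them was 0.0501. Their wild-type and knockout differences lay within 0.10 of each other. With any 1 array left out each of the 24 still passed (adjusted p up to 0.0262), as it did without both SB arrays that stood apart (up to 0.0323). Picking genes without overlap and by smallest p favours this outcome.

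Seh1l, a subunit of the outer ring of the nuclear pore, had log2 signals of 11.07, 11.15 and 11.21 in SB and 11.31, 11.38 and 11.48 after VILI. It rose by 0.24 ± 0.06 (adjusted p = 0.00708), or 1.18-fold, with separate ranges. Nrf1, the nuclear respiratory factor that drives nuclear genes of the mitochondrion, stood at 8.04, 8.28 and 8.56 against 8.57, 8.66 and 8.80 and rose by 0.38 ± 0.09. Its ranges almost touched. Wdr75, a subunit of the complex that processes the small ribosomal subunit, stood at 9.68, 9.94 and 10.13 in SB and 10.20, 10.29 and 10.41 after VILI, and rose by 0.36 ± 0.08. Myo1e, a single-headed myosin that links membranes to actin, rose by 0.55 ± 0.13, from 7.63, 8.03 and 8.33 to 8.34, 8.58 and 8.70. Slc25a24, a carrier of ATP across the inner mitochondrial membrane, ran from 11.64 to 11.83 in SB and from 11.91 to 12.14 after VILI, with a rise of 0.27 ± 0.06. Both ranges were narrow. The histone deubiquitinase Usp16 (0.29), the chromatin remodelling ATPase Ino80 (0.30), Pgs1 (0.38), an enzyme of cardiolipin synthesis, the RNA-binding protein Hnrnpk (0.24), D10Wsu102e (0.33), the lipid kinase Pi4k2a (0.35) and the Golgi protein Yipf6 (0.22) made up the rest. For D10Wsu102e the mean of its 2 probe sets did not differ (0, adjusted p = 0.991), so its rise is that of the brighter one.

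Among the small falls, Hdac2, a class I histone deacetylase, had log2 signals of 10.72, 11.03 and 11.19 in SB and 10.50, 10.59 and 10.71 after VILI and fell by 0.39 on that scale (± 0.09, adjusted p = 0.00713). Coq9, needed for the synthesis of ubiquinone, was held within 9.73 to 9.82 in SB and ranged from 9.01 to 9.60 after VILI, a difference of -0.40 ± 0.09. The SB arrays of Coq9 were thus far tighter than the VILI arrays. Maf1, a repressor of RNA polymerase III, stood at 10.99, 11.17 and 11.38 against 10.76, 10.87 and 10.98, a difference of -0.32 ± 0.08. Ntn4, a netrin of basement membranes, stood at 12.19, 12.27 and 12.39 against 11.91, 12.03 and 12.14 (-0.26 ± 0.06). In Maf1 the highest VILI array came within 0.01 of the lowest SB array, and in Ntn4 the gap was wider. Phlpp2, a phosphatase of the kinase Akt (-0.40), Usp46 (-0.47), the Mediator subunit Med31 (-0.48), the tRNA methyltransferase Trmt2b (-0.58), the membrane fusion protein Stx3 (-0.34), the peptidase Pgpep1 (-0.53), 1700028P14Rik (-0.55) and 2610027K06Rik (-0.50) also fell.

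**Figure D2:**
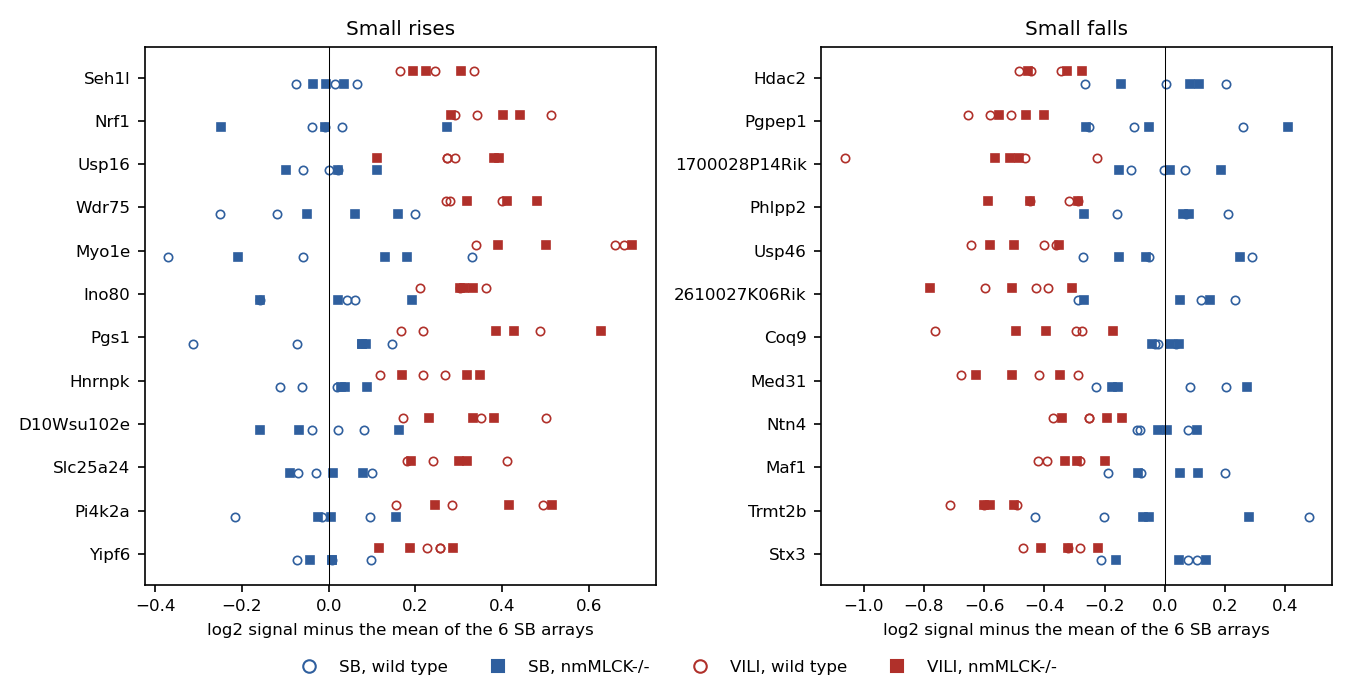
Log2 signal of each of the 24 small-change genes on each array, as the difference from the mean of the 6 SB arrays (0 on the horizontal axis); blue marks SB and red VILI, open circles wild type and filled squares nmMLCK-/-. In each of the 24 genes the red and blue marks occupy separate ranges, which the rule by which they were picked required.

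Beyond single genes, 44 lists of pathways and cell programs held 1513 tested genes, of which 604, or 39.9%, were called. Each list is described by how many members rose and fell, to be read against the 14.1% and 22.6% of all tested genes, by its median difference, to be read against -0.05, and by its level on each array, the median over the list of a gene's signal minus its mean over the 12 arrays. In 12 lists the 6 VILI arrays lay outside the range of the 6 SB arrays on that level, 6 higher and 6 lower. Lists and members were picked with earlier results of these data known, which can favour such separation.

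**Figure D3:**
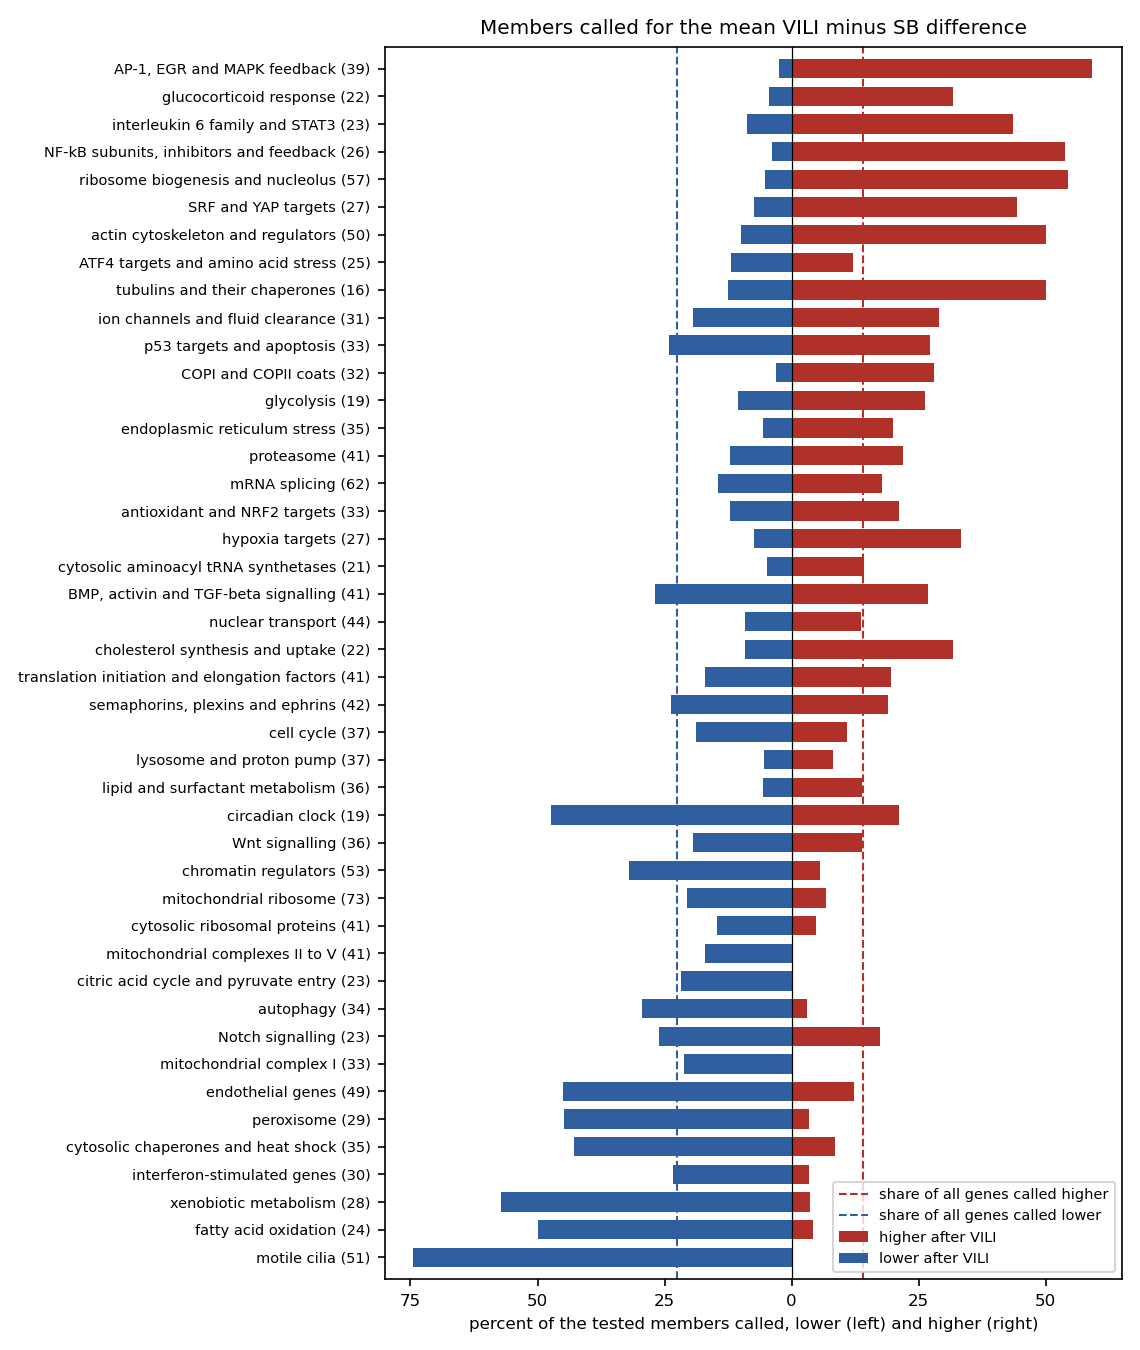
Percent of each list's tested members (number in brackets) that rose (red, right) or fell (blue, left), ordered by the median difference, with dashed lines at the 14.1% and 22.6% of all tested genes. Motile cilia lie farthest to the left, and the AP-1, NF-kB and ribosome biogenesis lists extend farthest to the right.

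Genes of ribosome production rose together, mostly by modest amounts. Of 57 tested genes of ribosome biogenesis and the nucleolus, the site where ribosomal RNA is made and assembled with proteins, 31 rose (54.4%) and 3 fell, and the median difference was 0.26, at 0.34 in wild type and 0.22 in the knockout. The level of the list on the arrays ran from -0.24 to -0.07 in SB and from 0.08 to 0.19 after VILI. Of the 34 called members 25 differed by less than 1.5-fold and 11 had passed in neither genotype alone. The count of rises was 23 to 29 in fits that left out 1 array and 28 without the 2 SB arrays that stood apart. The falls were 0 to 3 with 1 array left out, with 3 without wild-type SB replicate 2 or knockout SB replicate 1, and 0 with median centring.

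Tsr1, which matures the small subunit in the cytoplasm, had log2 signals of 9.66, 9.76 and 9.98 in SB and 10.45, 10.66 and 10.89 after VILI and rose by 0.88 ± 0.06 (adjusted p = 1.73e-05). Gnl3, a nucleolar GTPase also called nucleostemin, stood at 10.14, 10.37 and 10.49 against 11.08, 11.11 and 11.16 (0.77 ± 0.07). Heatr1, which acts in ribosomal RNA transcription and processing, stood at 8.31, 8.45 and 8.54 against 9.03, 9.28 and 9.34 (0.79 ± 0.08). The ranges of these genes were clearly separate. Rrs1, an assembly factor of the large subunit, rose by 0.64 ± 0.07, with wild-type VILI replicate 1 below the other VILI arrays. Rises were seen in Rrp12 (1.18) and Nop58 (1.13), the helicase Ddx21 (0.49), the polymerase I subunit Polr1a (0.31) and the polymerase I factor Rrn3 (0.27), while Polr1c, a subunit that polymerases I and III share, Nop10 and Imp3 differed by -0.25, -0.41 and -0.26, the 3 falls that median centring did not keep.

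Stretches of 11 promoters of this list are shown for a motif that they hold. The E-box CACGTG, read the same on both strands and known as the site of MYC and MAX, MITF-type factors and the clock activators, was found in 11 of the 27 promoters (40.7%) of members that rose, in 1 of 19 (5.26%) of those not called, and in 10.2% of the 9928 promoters of tested genes. A promoter here is the 300 bases from 250 before to 50 after the RefSeq start site (GRCm38.p6), and 7.24% of the 27025 promoters of that table held the motif. It was searched, with other motifs, in all 44 lists and is not particular to this one. It was in 3 of 5 promoters of nuclear transport members that rose and 2 of 4 that fell. For translation factors this was 2 of 5 and 3 of 6, and for cholesterol synthesis 3 of 7 that rose. Uncalled lysosome members held it in 9 of 26 (34.6%), and actin members that rose in 2 of 22 (9.09%). In 8 of the 11 genes a match lay after the start site, its first base 16 to 41 bases into the transcript, against 15.1% of the tested genes with a match. Here are 30 bases around the first match of each, 5′ to 3′ on the gene's strand, with CACGTG in capitals, at chr11:74898092-74898121 (+) for Tsr1, chr17:71616220-71616249 (+) for Wdr43, chr11:72441347-72441376 (+) for Mybbp1a, chr10:88826765-88826794 (-) for Utp20, chr10:13193092-13193121 (-) for Ltv1, chr7:45830740-45830769 (-) for Grwd1, chr11:17211540-17211569 (-) for Pno1, chr8:106893643-106893672 (+) for Utp4, chr6:125131811-125131840 (+) for Nop2, chr16:13780472-13780501 (+) for Rrn3 and chr1:34439696-34439725 (+) for Imp4.
Tsr1: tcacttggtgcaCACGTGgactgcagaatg
Wdr43: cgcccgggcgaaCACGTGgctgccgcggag
Mybbp1a: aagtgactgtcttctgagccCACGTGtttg
Utp20: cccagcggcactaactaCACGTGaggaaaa
Ltv1: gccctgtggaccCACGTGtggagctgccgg
Grwd1: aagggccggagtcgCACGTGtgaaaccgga
Pno1: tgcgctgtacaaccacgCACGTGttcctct
Utp4: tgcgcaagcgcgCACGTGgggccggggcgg
Nop2: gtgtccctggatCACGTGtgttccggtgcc
Rrn3: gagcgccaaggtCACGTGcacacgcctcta
Imp4: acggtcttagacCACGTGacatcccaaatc

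These 11 genes rose by 0.26 (Utp4) to 0.88 (Tsr1), with Wdr43 at 0.65, Mybbp1a at 0.63, Utp20 at 0.57, Ltv1 at 0.48, Pno1 at 0.44, Grwd1 at 0.43, Imp4 and Nop2 at 0.33 and Rrn3 at 0.27. The match lay 121 bases before the start site in Imp4 and 60 before it in Nop2, and Rrn3 held matches 215 and 48 before it. Myc itself, a member of the AP-1 and EGR list, rose by 2.07. Whether any factor bound these sites was not measured.

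Other parts of the translation apparatus had fewer rises. Of 41 tested cytosolic ribosomal proteins, the structural parts of the ribosome, 2 rose and 6 fell, at a median of -0.11. Rpl12 stood at 6.45 to 7.09 in SB and 7.64 to 8.17 after VILI and rose by 1.15 ± 0.12, and Rps25 rose by 0.79 ± 0.12. Rpl6 ran from 13.75 to 13.87 in SB and from 13.48 to 13.69 after VILI, a small but separate fall of -0.20 ± 0.05. The count of falls was 1 with median centring of the arrays, 3 with quantile scaling and 1 without the 2 SB arrays that stood apart. Leaving out 1 array gave 1 (without wild-type VILI replicate 3) to 9 falls. Only 42 of the 74 genes of this list had a probe set with 1 gene name. Among 41 translation factors 8 rose and 7 fell. Eif3b, a scaffold of initiation factor 3, rose by 0.49 ± 0.06, from 10.11 to 10.24 in SB to 10.50 to 10.88 after VILI, whereas Eif4b, which helps the helicase that opens messenger RNA, fell (-0.51 ± 0.05), as did Eef2k, the kinase that halts elongation (-0.98 ± 0.12). Of 21 cytosolic aminoacyl tRNA synthetases, which charge tRNAs, 3 rose and 1 fell, Eprs by 0.58 ± 0.13. Without the 2 SB arrays that stood apart 1 rose and 2 fell, and with 1 array left out 1 to 3 rose, with 3 only without knockout SB replicate 1, and 0 to 3 fell.

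Genes of fat oxidation were lower after VILI. Of 24 tested genes of fatty acid oxidation, 12 fell (50%) and 1 rose, and the median was -0.39, at -0.24 in wild type and -0.51 in the knockout. The level of the list was 0.01 to 0.41 on the SB arrays and -0.30 to 0 on the VILI arrays, separate by a narrow margin. Cpt2, which releases long-chain acyl groups inside mitochondria, had log2 signals of 9.39, 9.54 and 9.95 in SB and 8.65, 8.71 and 9.16 after VILI (-0.77 ± 0.12, adjusted p = 0.00106). Acaa2, the thiolase of the cycle, stood at 11.73, 12.08 and 12.21 against 11.24, 11.31 and 11.64 (-0.66 ± 0.10), and Eci1, an isomerase for unsaturated fats, at 9.70, 9.78 and 9.94 against 9.12, 9.22 and 9.54 (-0.53 ± 0.08). No SB array reached the VILI range in these genes. Acad10, a dim acyl-CoA dehydrogenase, fell from 3.67 to 4.79 in SB to 2.50 to 2.74 after VILI, below the filter level of 3.056, so its difference of -1.43 has no measured size. The 1 rise was Ppargc1a, a coactivator of mitochondrial genes (0.94), chosen for naming after its value was seen, as are other list members given here without their signals. Without the 2 SB arrays that stood apart, 17 members fell and the rise was lost.

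Peroxisomes, which shorten very long and branched fatty acids, had 13 of 29 tested genes that fell (44.8%) and 1 that rose, at a median of -0.19. Pex26, an anchor of the import machinery, stood at 7.39, 7.66 and 7.77 in SB and 6.25, 6.71 and 6.78 after VILI (-1.0 ± 0.10, adjusted p = 9.55e-05). Ech1, an isomerase, fell (-0.57 ± 0.07), as did Amacr, a racemase of branched acids (-0.76 ± 0.11), and Crot, which exports shortened acyl groups (-0.86 ± 0.12). The ranges were separate in each of these. Xenobiotic metabolism, the enzymes that detoxify foreign compounds and mark club cells, had 16 of 28 that fell (57.1%) and 1 that rose, at a median of -0.37 and with 7 calls that neither genotype gave alone. Ephx1, an epoxide hydrolase, stood at 12.40, 12.63 and 12.84 against 11.95, 12.11 and 12.27 (-0.52 ± 0.08). Cyp2b10, a cytochrome P450 of lung and liver, stood at 13.64, 13.86 and 13.97 against 13.29, 13.45 and 13.60 (-0.39 ± 0.07), Aldh1a7 differed by -0.37 ± 0.06 and Sult1d1, a sulfotransferase whose ranges overlapped, by -1.25 ± 0.22. Club cell markers, which share Aldh1a7 with this list, moved less than these enzymes. Of 6 markers 1 fell, at a median of -0.07, and their summed level was 17.38 to 17.56 in SB and 17.36 to 17.44 after VILI. Their part in the falls of this list was not tested.

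The share of falls in the respiratory chain, by contrast, lay near the 22.6% of all tested genes. No member was called higher, and 29 of 33 differences in complex I and 32 of 41 in complexes II to V were below 0. Of 33 tested genes of complex I, 7 fell (21.2%) and the other 26 did not pass, at a median of -0.15. Ndufa6 fell the most, from 11.41 to 11.70 in SB to 10.62 to 11.16 after VILI (-0.64 ± 0.07), and Ndufs7, called in neither genotype alone, ran from 12.31 to 12.70 in SB and from 12.04 to 12.29 after VILI (-0.32 ± 0.08). In complexes II to V, 7 of 41 fell (17.1%) at a median of -0.12, among them Sdha (-0.26 ± 0.07), Atp5c1 (-0.42 ± 0.09) and Atp5g2 (-0.48 ± 0.11). Leaving out 1 array gave 5 to 10 falls in complex I and 4 to 10 in complexes II to V, in both fewest without wild-type VILI replicate 3. Of 73 mitochondrial ribosome genes 15 fell and 5 rose, with 8 falls without knockout VILI replicate 2 and 8 without the 2 SB arrays that stood apart, Mrpl39 by -0.59 ± 0.11 and Mrpl16 by 0.46 ± 0.08. In the citric acid cycle 5 of 23 fell, with Idh2 at -0.56 ± 0.07 and Pdk2, a kinase that shuts pyruvate dehydrogenase, at -0.95 ± 0.13. Glycolysis had 5 of 19 genes that rose and 2 that fell. With 1 array left out 3 to 5 rose, with 3 without wild-type VILI replicate 2, knockout SB replicate 2 or knockout VILI replicate 2, and 0 to 2 fell, with 2 without wild-type SB replicate 2, knockout SB replicate 3 or knockout VILI replicate 3. Hk2, the inducible hexokinase, stood at 9.43, 10.07 and 10.65 in SB and 11.42, 11.71 and 11.81 after VILI (1.66 ± 0.19), and the glucose transporter Slc2a1 rose by 0.90 ± 0.11. Cholesterol synthesis had 7 of 22 that rose and 2 that fell, with Pmvk at 1.71 ± 0.20, Hsd17b7 at 1.04 ± 0.14 and Lss at 0.38 ± 0.09, though the median of that list was 0 and 4 rose without wild-type VILI replicate 2.

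The motile cilium was the list with the highest share of called members. Of 51 tested genes 38 fell (74.5%), the other 13 did not pass, and the median was -0.56, at -0.60 in wild type and -0.48 in the knockout. Its level was 0.09 to 0.43 on the SB arrays and -0.43 to -0.12 on the VILI arrays. Among the falls were the regulators Foxj1 (-2.0) and Rfx3 (-0.81), dynein assembly factors such as Lrrc6, the radial spoke gene Rsph4a, dynein heavy chains such as Dnah5 (-0.67), the tektins, the intraflagellar transport genes Ift80 (-0.68), Ift140 (-0.58), Ift172 (-0.57) and Ift88 (-0.39), and the BBSome genes Bbs5 (-0.83), Bbs7 (-0.72) and Bbs9 (-0.75). Rsph4a had log2 signals of 8.43, 8.69 and 8.88 in SB and 6.60, 7.19 and 7.74 after VILI (-1.52 ± 0.18), and Lrrc6 stood at 5.82, 6.12 and 6.54 against 4.48, 4.70 and 5.26 (-1.39 ± 0.15). Traf3ip1, an intraflagellar transport protein, ran from 9.29 to 9.84 in SB and from 8.43 to 8.77 after VILI (-0.94 ± 0.10). All of these ranges were separate. The calls that needed both genotypes were Dnah5, Tekt1 (-0.56), Bbs1 (-0.46), Cfap52 (-0.41) and Ift88. Ciliated cell markers, which overlap this list, fell in 9 of 11 and rose in 1, Tubb4b, a tubulin of many cell types. Their part in the result was not tested.

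The cytoskeleton moved upward. Of 50 tested genes of actin and its regulators 25 rose (50%) and 5 fell, at a median of 0.21, with levels of -0.10 to 0 on the SB arrays and 0.04 to 0.14 on the VILI arrays. Of the 30 called members 25 differed by less than 1.5-fold, and Rnd3, Cotl1, Zyx and Ezr were among those that differed by more. Zyx, the focal adhesion protein zyxin, had log2 signals of 11.63, 11.88 and 12.12 in SB against 12.48, 12.71 and 12.84 after VILI (0.80 ± 0.09), and Actr3, of the complex that branches actin filaments, stood at 13.16, 13.32 and 13.55 against 13.74, 13.86 and 13.94 (0.52 ± 0.08). The sets of 6 arrays were separate in both. Smaller rises were those of the crosslinkers Actn4 (0.43), Actn1 (0.32) and Flna (0.32), the adhesion protein Vcl (0.38), the non-muscle myosin heavy chain Myh9 (0.32), and the actins Actg1 (0.24) and Actb (0.15). The myosin light chain Myl9, which smooth muscle shares, fell (-0.42), and so did Myh10 (-0.34). Smooth muscle markers fell in 3 of 7, with a summed level of 14.28 to 14.74 in SB and 13.94 to 14.47 after VILI, and their part in this was not tested.

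Tubulins and their chaperones had 8 of 16 that rose and 2 that fell, at a median of 0.20. Tubb6 stood at 8.21, 8.66 and 9.35 in SB and 10.27, 10.56 and 10.91 after VILI (1.84 ± 0.20) and Tubb2b rose by 1.03 ± 0.16, whereas Tubb5 and Tubg1 fell (-0.30 and -0.61). Tubulin genes are close paralogs, and probe sets may read more than one. Of 27 targets and partners of SRF and YAP 12 rose (44.4%) and 2 fell, at a median of 0.23. Levels overlapped, at -0.20 to -0.05 on the SB arrays and -0.10 to 0.22 on the VILI arrays. The median was 0.20 in wild type and 0.26 in the knockout, where 4 and 11 members rose. In 5 of the 27 the response differed between genotypes at an unadjusted p under 0.05 in limma's test, and 0 genes passed after adjustment. Srf stood at 8.88, 9.08 and 9.62 in SB and 10.13, 10.51 and 10.72 after VILI (1.28 ± 0.15), Ccn1 and Ccn2 rose by 0.74 and 0.45, and Yap1 itself fell (-0.29). The coats of the secretory pathway, COPI and COPII, had 9 of 32 that rose (28.1%) and 1 that fell. Sec24a, a cargo adaptor, ran from 10.89 to 11.10 in SB and from 11.33 to 11.44 after VILI (0.44 ± 0.05), and Sec22b, Sec24d and Kdelr3 rose by 0.50, 0.41 and 1.02.

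**Figure D4:**
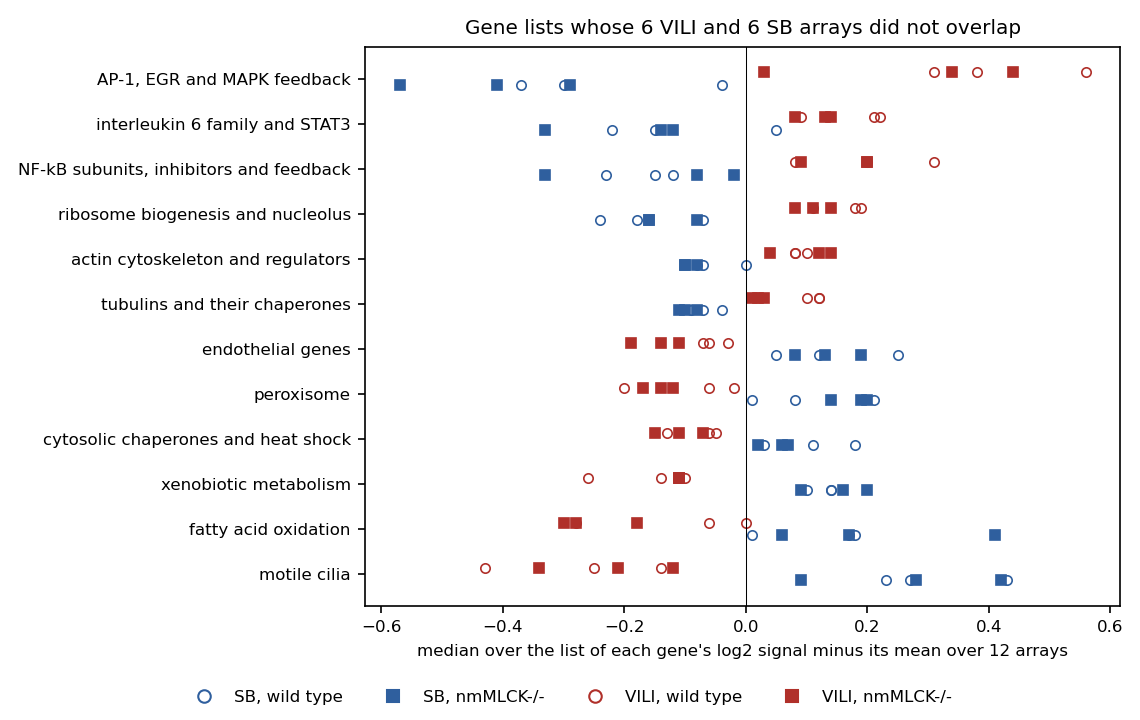
Level of the 12 lists whose SB and VILI arrays did not overlap, as the median over the list of each gene's log2 signal minus its mean over 12 arrays (horizontal axis); blue is SB, red VILI, open circles wild type and filled squares nmMLCK-/-. The gap is wide for motile cilia, between 0.09 and -0.12, and SB and VILI nearly touch for fatty acid oxidation, at 0.01 and 0.

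Regulators of inflammatory signalling rose. Of 26 tested subunits, inhibitors and feedback genes of NF-kB, 14 rose (53.8%) and 1 fell, at a median of 0.31 and with levels of -0.33 to -0.02 on the SB arrays and 0.08 to 0.31 on the VILI arrays. Bcl3, a nuclear partner of the p50 and p52 subunits, stood at 7.71, 7.83 and 8.32 in SB and 9.88, 10.03 and 10.26 after VILI (2.10 ± 0.10, adjusted p = 2.77e-06). Rela, the p65 subunit, stood at 11.35, 11.40 and 11.49 against 11.83, 11.99 and 12.12 (0.57 ± 0.06), a change of under 1.5-fold with wide separation. Nfkbiz and the kinase Map3k8 rose by 0.82 ± 0.10 and 0.88 ± 0.12. Tnfaip3 (0.68), Birc3 (0.59), Ikbkb (0.25) and Tbk1 (0.21) passed over both genotypes and in neither alone. Traf1 fell (-0.88). The motif GGNNTTTCC, a form of the NF-kB site searched on both strands, was found in the promoters of 5 of 10 members that rose (50%), 3 of 11 not called (27.3%) and 6.06% of tested genes, with the same promoter definition. The 30 bases around the first match, capitals marking the matches, are shown for these 5 genes (the second match of Tnfaip3 runs on past the end of its stretch), at chr7:19822840-19822869 (-) for Bcl3, chr10:19015415-19015444 (-) for Tnfaip3, chr19:46304717-46304746 (+) for Nfkb2, chr12:111442564-111442593 (+) for Tnfaip2 and chr2:61593016-61593045 (+) for Tank.
Bcl3: cgcgggtccaGGAAACCCCtggggcggacg
Tnfaip3: tcacgtgactGGAATTTCCatcGGAAATCC
Nfkb2: gggccgaaagGGGCTTTCCcggctggagcc
Tnfaip2: gtccgccagcGGATTTTCCgcggttgcggt
Tank: tttgtgggcgGGGCTTTCCtgcagaggcgg

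The interleukin 6 family and STAT3 list had 10 of 23 that rose (43.5%) and 2 that fell, at a median of 0.34 and at 0.16 without the 2 SB arrays that stood apart. Socs3, the feedback inhibitor of this pathway, ran from 10.88 to 11.55 in SB and from 12.65 to 13.32 after VILI (1.89 ± 0.13). Stat3 (0.57), the receptor Osmr (0.34), the cytokine Lif (0.42) and Cebpd (0.59) rose and needed both genotypes, while the receptor Lifr fell, from 12.30 to 12.63 in SB to 11.59 to 11.95 after VILI (-0.71 ± 0.08). Of 39 genes of AP-1, EGR and MAP kinase feedback 23 rose (59%) and 1 fell, at a median of 0.72. Their levels ran from -0.57 to -0.04 on the SB arrays and from 0.03 to 0.56 on the VILI arrays. Dusp16, a phosphatase of the stress kinases, ran from 10.70 to 10.99 in SB and from 11.63 to 12.05 after VILI (1.00 ± 0.06, adjusted p = 7.9e-06). Spry4 and Spred2, inhibitors of receptor signalling to ERK, rose by 1.60 ± 0.13 and 0.54 ± 0.06, and Mafk, a small Maf factor, rose by 0.88 ± 0.08. The receptor Egfr rose (1.21) and its partner Erbb2 fell (-0.46).

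Interferon-stimulated genes did not share this direction. Of 30 tested, 7 fell (23.3%) and 1 rose, at a median of -0.20, and the count of falls ran from 1 without wild-type VILI replicate 3 to 9 and was 4 without the 2 SB arrays that stood apart. Ifit2, an antiviral gene, ran from 9.84 to 10.48 in SB and from 9.31 to 9.80 after VILI (-0.50 ± 0.10), and Cxcl10, a chemokine that interferons induce, rose by 0.67 ± 0.13. In the proteasome, 9 of 41 genes rose (22%) and 5 fell. Psmb8, Psmb9 and Psmb10, the interferon-inducible catalytic subunits, fell (-0.85, -0.63 and -0.58), Psmd5, an assembly chaperone, fell (-0.68 ± 0.11), and the regulatory particle subunits Psmd12 (0.29 ± 0.07), Psmd11 (0.25), Psmd6 (0.22) and Psmd14 (0.21) rose. Psme4, an alternative activator, ran from 11.63 to 11.88 in SB and from 11.89 to 12.04 after VILI (0.27 ± 0.06).

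Chaperones of the cytosol and the heat shock response fell in 15 of 35 (42.9%) and rose in 3, at a median of -0.19. Hspe1, the lid of the mitochondrial chaperonin, stood at 11.91, 12.04 and 12.17 in SB and 11.33, 11.39 and 11.64 after VILI (-0.62 ± 0.07, adjusted p = 0.000209). Hspa1b had 11.82, 14.14 and 14.66 against 9.89, 10.49 and 11.05 (-3.34 ± 0.41), and Hspa1a 8.57, 10.81 and 12.40 against 7.29, 7.42 and 7.64 (-3.21 ± 0.47). The sets of 6 did not overlap, though the SB arrays spread widely. These are near-identical copies, so their signals may not be separate. Dnajb1, the J protein that works with them, fell (-1.39 ± 0.19), with lesser falls in Hsph1 (-0.84), Fkbp4 (-0.61), Ahsa1 (-0.57), Hspd1 (-0.43), Dnaja1 (-0.37) and Hspa8 (-0.36). Bag3, Hspb8 and Hspa4 rose, by 0.49, 0.73 and 0.55.

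The heat shock element GAANNTTC, which reads the same on both strands, was in the promoters of 7 of 13 members that fell (53.8%), 2 of 3 that rose (66.7%), 2 of 14 not called (14.3%) and 5.5% of tested genes. The motif therefore occurred in members of either direction. The 30 bases around the first match in the members that fell, with each match in capitals, lie at chr17:34959324-34959353 (-) for Hspa1b, chr17:34972242-34972271 (-) for Hspa1a, chr9:18292252-18292281 (+) for Chordc1, chr5:149636287-149636316 (-) for Hsph1, chr1:55088053-55088082 (+) for Hspe1, chr6:128438789-128438818 (-) for Fkbp4 and chr4:40722333-40722362 (+) for Dnaja1. Hspa1b and Hspa1a hold the same 30 bases, and Chordc1, which fell by 1.05 on the log2 scale, holds a match that spans the start site and another after it.
Hspa1b: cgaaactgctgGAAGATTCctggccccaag
Hspa1a: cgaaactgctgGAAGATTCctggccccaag
Chordc1: ctgtgcaaccgGAACGTTCggGAAAATTCc
Hsph1: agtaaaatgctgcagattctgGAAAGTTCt
Hspe1: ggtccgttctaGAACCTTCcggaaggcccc
Fkbp4: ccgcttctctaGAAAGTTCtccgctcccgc
Dnaja1: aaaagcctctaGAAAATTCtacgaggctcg

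In the endoplasmic reticulum stress list 7 of 35 rose and 2 fell, Hyou1 by 0.44 ± 0.10 and the sensor kinase Eif2ak3 by 0.34 ± 0.08, and without the 2 SB arrays that stood apart 13 rose and 3 fell. Of 25 targets of ATF4, the factor of amino acid stress, 3 rose and 3 fell, and without these 2 arrays 4 rose, 8 fell and the median went from 0.21 to -0.13. Atf4 rose from 12.12 to 12.60 in SB to 12.67 to 13.21 after VILI (0.59 ± 0.09), and its target Ddit3 fell (-0.52 ± 0.07), as did Shmt2 (-0.31 ± 0.07). Cebpg differed by -0.53 ± 0.14 in its brightest probe set and by 0.18 (adjusted p = 0.460) as the mean of 3. Autophagy fell in 10 of 34 (29.4%) and rose in 1, at a median of -0.13. Nbr1, a cargo receptor, stood at 12.02, 12.24 and 12.28 in SB and 11.49, 11.64 and 11.78 after VILI (-0.56 ± 0.06), and the kinases Ulk2 and Pik3c3 fell (-0.72 ± 0.10 and -0.42 ± 0.08).

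Chromatin regulators fell in 17 of 53 (32.1%) and rose in 3, at a median of -0.08. Ezh1, a methyltransferase of the Polycomb complex, ran from 9.75 to 10.06 in SB and from 8.85 to 9.59 after VILI (-0.77 ± 0.10), and Cbx1, a heterochromatin protein, from 10.87 to 11.49 against 10.58 to 10.67 (-0.56 ± 0.09). The DNA methyltransferases Dnmt1 and Dnmt3a fell (-0.43 and -0.56), as did Ezh2 (-0.67) and Chd4 (-0.24), while Dot1l, which methylates histone H3 on lysine, rose from 7.80 to 8.16 in SB to 8.72 to 9.43 after VILI (1.10 ± 0.13). Splicing factors split into 11 of 62 that rose and 9 that fell. Srsf2 rose (0.41 ± 0.08) and the kinase Clk1 and Luc7l3 fell (-0.47 ± 0.08 and -0.63 ± 0.11). In nuclear transport 6 of 44 rose, with the importin Ipo9 at 0.44 ± 0.07 and the pore protein Nup54 at 0.35 ± 0.06, and 4 fell, with the main exportin Xpo1 at -0.58.

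Endothelial genes fell in 22 of 49 (44.9%) and rose in 6, at a median of -0.17, at -0.18 in wild type and -0.31 in the knockout. Levels were 0.05 to 0.25 on the SB arrays and -0.19 to -0.03 on the VILI arrays. Klf2, the flow-induced factor of quiescent endothelium, had log2 signals of 13.43, 13.72 and 13.85 in SB and 11.16, 11.39 and 11.68 after VILI (-2.25 ± 0.10, adjusted p = 2.39e-06). Sox18 stood at 11.22, 11.50 and 11.82 against 8.39, 9.46 and 9.79 (-2.23 ± 0.21). Ramp2, which forms the adrenomedullin receptor with Calcrl, stood at 13.44, 13.59 and 13.85 against 12.65, 12.81 and 12.96 (-0.80 ± 0.08). The arrays separated without exception in these genes. Smaller falls were those of Tek, the angiopoietin receptor (-0.65), Thbd (-0.53), the nitric oxide synthase Nos3 (-0.50), Icam2 (-0.25), Cav2 (-0.24) and Cav1 (-0.16), the last 4 of which passed in neither genotype alone. Robo4 rose, from 9.44 to 9.64 in SB to 9.96 to 10.27 after VILI (0.63 ± 0.06), with Cd93 (0.48), S1pr1 (0.45) and the tight junction gene Cldn5 (0.41). The summed level of 16 endothelial markers, which share genes such as Ramp2 and Tek with this list and of which 6 fell and 2 rose, was 16.74 to 16.91 in SB and 16.59 to 16.76 after VILI, and its part in these falls was not tested.

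**Figure D5:**
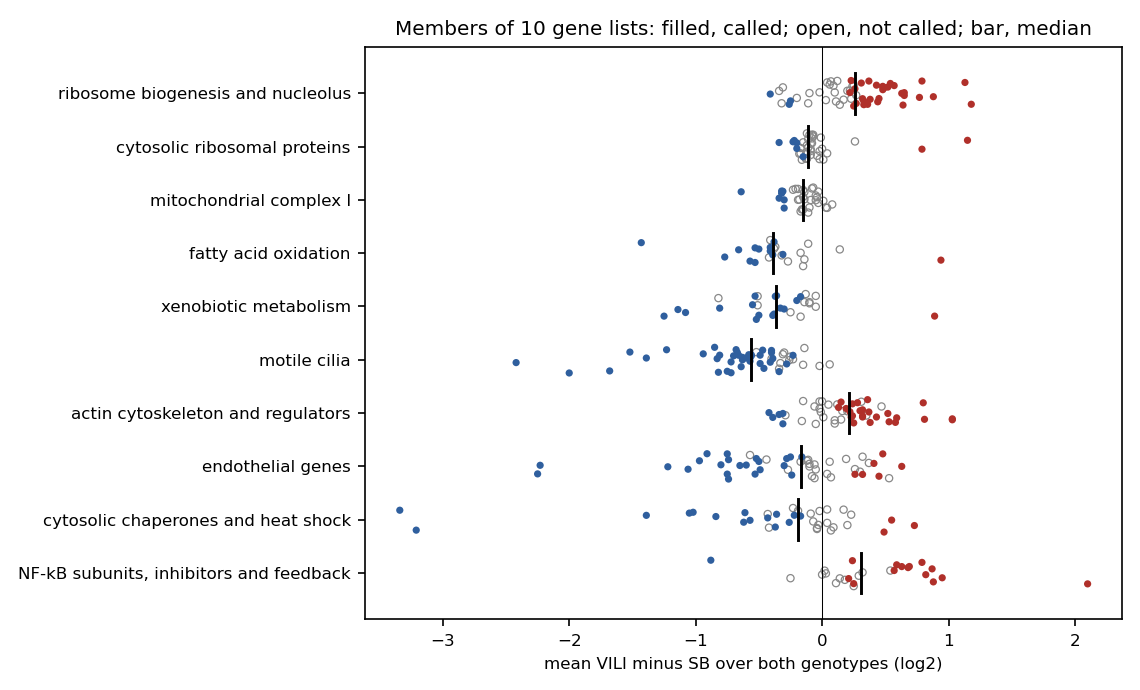
Mean VILI minus SB difference (log2, horizontal) of every tested member of 10 lists, with filled points for called genes (red higher, blue lower), open points for genes not called and a black bar at the median of the list. Of the 57 members of ribosome biogenesis 47 lie above 0, and of the 51 of motile cilia 50 lie below it. Members of complex I and the ribosomal proteins crowd near 0, with 29 of 33 and 36 of 41 below it.

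Calls in signalling pathways of development went in both directions. For the Notch, Wnt and semaphorin lists the shares lay near the 14.1% and 22.6% of all tested genes that rose and fell. In BMP, activin and TGF-beta signalling 11 of 41 rose and 11 fell (26.8% each), at a median of 0.01. The activin inhibitor Fstl3 had 8.83, 9.0 and 9.25 in SB and 10.10, 10.20 and 10.36 after VILI (1.20 ± 0.06, adjusted p = 4.65e-06) and the activin subunit Inhbb rose by 1.39 ± 0.13. The BMP targets Smad6 (-1.42 ± 0.13), Id1 (-1.12) and Id3 (-0.65) fell, with the ligands Bmp4 and Bmp6 (-0.62 and -0.51) and the receptors Acvrl1 (-0.85), Eng (-0.49) and Bmpr2 (-0.19). Smad1, the transducer of BMP signals, rose from 11.07 to 11.51 in SB to 12.05 to 12.22 after VILI (0.83 ± 0.08), and the ligand Bmp2 rose by 0.57. In the Notch list 6 of 23 fell (26.1%) and 4 rose (17.4%). The ligands Jag1 and Jag2 (-0.59 and -0.60) and the targets Hey1 (-0.89) and Nrarp (-0.83 ± 0.15) fell, and Heyl rose (1.25 ± 0.12), as did Notch2 (0.39). In Wnt signalling 7 of 36 fell (19.4%) and 5 rose (13.9%), with 2 rises without wild-type VILI replicate 2. The receptor Fzd7 fell from 9.47 to 10.10 in SB to 8.32 to 8.64 after VILI (-1.32 ± 0.09). Fzd3 also fell (-0.71 ± 0.16), and Fzd5 rose (0.64 ± 0.14). Of semaphorins, plexins and ephrins 10 of 42 fell (23.8%), Sema3g by -0.84 ± 0.08, and 8 rose (19%), Epha2 by 1.13 ± 0.18.

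Genes of alveolar fluid clearance were among the modest rises. Of 31 ion channels and transporters 9 rose (29%) and 6 fell, at a median of 0.14. The subunits of the epithelial sodium channel rose together, Scnn1a (0.49), Scnn1g (0.49 ± 0.10) and Scnn1b (0.27). Nedd4, a ubiquitin ligase, fell from a median of 13.04 in SB to 12.49 after VILI, without overlap (-0.57 ± 0.09). Scnn1g ran from 11.29 to 11.92 in SB and from 11.98 to 12.21 after VILI, so the ranges were separate. The chloride channel Cftr and the cotransporter Slc12a2 rose (0.98 and 0.38), and the water channels Aqp1 (-0.34 ± 0.07) and Aqp4 (-1.11) fell. In lipid and surfactant metabolism 5 of 36 rose and 2 fell. Sftpd, the collectin of surfactant, ran from 13.98 to 14.36 in SB and from 14.44 to 14.52 after VILI (0.29 ± 0.06), and Chkb, a choline kinase, rose by 0.71 ± 0.13. Acsl4 rose by 0.19 ± 0.05 in its brightest probe set and differed by -0.14 (adjusted p = 0.509) as the mean of 3.

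The circadian clock moved in opposite arms. Of 19 tested members 4 rose, the activator Arntl (2.40 ± 0.25) and the repressors Nfil3 and Bhlhe40 (0.75) among them, and 9 fell, the D-box activators Dbp, Tef (-0.65) and Hlf (-1.01) and the repressors Per2 (-0.72), Per3 (-1.76), Cry1 (-0.53) and Nr1d2 (-0.62 ± 0.08). Cry1 and Usp2 (-0.48) needed both genotypes. In 5 of the 19 members the response differed between genotypes at an unadjusted p under 0.05 in limma's test. Such members were 5 of 27 in the SRF and YAP list and 4 of 23 in the citric acid cycle list. The share was 5.03% over all tested genes, and 0 genes passed after adjustment. Arntl ran from 4.58 to 5.45 in SB and from 7.61 to 8.70 after VILI in wild type. In the knockout it ran from 3.60 to 4.46 and from 5.24 to 6.10, so its mean stands for unlike values. The sources used here do not give the time of day of the samples, and its part was not tested. The promoters of Ciart, which fell (-1.06), and Per3 show clock motifs before their start sites: Ciart holds E-boxes (CACGTG), 116, 58 and 44 bases before it, and Per3 holds D-boxes (TTATGTAA), 205 and 158 bases before it. E-boxes were in 3 of 8 promoters of clock genes that fell and D-boxes in 1 of 8, against 10.2% and 0.534% of tested genes. The 250 bases before the start site are at chr3:95882229-95882478 (-) for Ciart and chr4:151044666-151044915 (-) for Per3.
Ciart: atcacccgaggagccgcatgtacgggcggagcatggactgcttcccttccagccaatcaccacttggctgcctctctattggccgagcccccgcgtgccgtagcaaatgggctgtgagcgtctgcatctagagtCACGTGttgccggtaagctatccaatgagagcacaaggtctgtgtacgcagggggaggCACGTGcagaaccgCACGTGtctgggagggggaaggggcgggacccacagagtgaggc
Per3: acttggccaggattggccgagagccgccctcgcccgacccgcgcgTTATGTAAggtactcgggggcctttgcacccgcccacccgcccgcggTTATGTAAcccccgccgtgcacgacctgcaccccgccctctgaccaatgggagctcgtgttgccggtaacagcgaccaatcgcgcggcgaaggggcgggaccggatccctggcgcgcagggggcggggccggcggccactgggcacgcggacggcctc

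Among lists with fewer or divided changes, hypoxia targets had 9 of 27 that rose and 2 that fell, with Adm at 1.79 ± 0.28 and Ndrg1 at 0.68 ± 0.09, and a median of 0.02. Antioxidant genes had 7 of 33 that rose, the metallothioneins Mt1 and Mt2 (2.20 ± 0.34 and 2.72 ± 0.52) and Gsr (0.90 ± 0.12) among them, and 4 that fell, such as Gsta3 (-0.78 ± 0.10). Mt1 stood at 11.11 and 10.94 in the SB arrays that stood apart and at 12.28 to 13.04 in the other SB arrays. For Mt2 these values were 9.63 and 8.99 against 11.30 to 12.32. Of 22 targets of glucocorticoids 7 rose and 1 fell, at a median of 0.57. That median was 0.08 without the 2 SB arrays that stood apart, when 7 rose and 5 fell. The receptor Nr3c1 fell (-0.50 ± 0.10), from 12.26 to 12.69 in SB to 11.58 to 12.13 after VILI. In p53 targets and apoptosis 9 of 33 rose, Bik by 0.65 ± 0.11 and Mcl1 by 0.34 ± 0.07, and 8 fell, Polk by -0.68 ± 0.09. In the cell cycle list 4 of 37 rose, Cdk6 by 0.32 ± 0.05, and 7 fell, Mcm7 by -0.55 ± 0.10 and Cdkn2c by -1.39 ± 0.25. Lysosome and proton pump genes had the lowest share of calls, with 3 of 37 that rose, Ctsh by 0.34 ± 0.08, and 2 that fell.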

How the data were processed

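Each of the 12 arrays read total RNA of 1 lung sample, and nothing beyond the word animals in the series text says that replicates were separate mice, so p-values measure the spread between these samples. The deposited values are on a log2 scale, made by the authors with MAS5 and GCRMA per the submitters' processing notes, which give no role, order or version for these. Of 45037 probe sets, 34945 had 1 gene symbol in GEO's platform annotation, 932 several and 9160 none. The brightest probe set stood for each of 18193 genes, and genes with a mean over 3.056, the 40th percentile, were kept. No further scaling was applied. A linear model with genotype, treatment and their interaction was fitted to all 12 arrays with limma 3.58.1 in R 4.3.3, with Benjamini-Hochberg adjustment over 12309 genes; the scripts were tested on simulated data. Named genes are the 10 largest non-overlapping changes and 12 small ones in each direction, and up to 4 called members of a list by smallest p. Other list members were chosen after their values were seen. The members and lists were chosen with earlier results of these data known. Promoters came from a RefSeq table (GRCm38.p6) that held 9928 of the tested genes, the first window of each. Alternatives were the replicate block, an additive model, scaling, filters, the mean of probe sets, trended and robust moderation, array weights and arrays left out. The result of 1 item is not reported here.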

Additional observations from a re-analysis of the deposited data

Results flagged for a closer look

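In groups of 6 arrays, 1 array lay far from the other 5 in 22 of 514 groups examined, or 4.28%, where chance gives about 1 in 20. Among SB arrays, knockout replicate 2 was low in Nfil3, at a log2 signal of 2.57 against 4.52 to 5.46, and in Hspa1b, at 11.82 against 13.90 to 14.66. Knockout SB replicate 1 was high in Idh3b, at 12.06 against 11.76 to 11.87, in Sec24a, at 11.10 against 10.89 to 10.96, and in the level of the citric acid cycle list, at 0.24 against 0.01 to 0.05. Wild-type SB replicate 2 was low in Bik, at 7.12 against 7.67 to 7.97, and wild-type SB replicate 3 was high in the actin list, at 0.00 against -0.10 to -0.07.

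Among VILI arrays, knockout replicate 3 responded less in Apold1 (9.42 against 10.29 to 10.70), Has1 (5.01 against 6.95 to 7.70) and Zfp467 (6.16 against 4.31 to 4.72), was high in Ipo9 (9.71 against 9.42 to 9.49) and low in Nr3c1 (11.58 against 11.93 to 12.13). Wild-type VILI replicate 1 was high in Prss22 (8.28 against 7.14 to 7.44) and Ndufs5 (11.62 against 11.32 to 11.43) and low in Rrs1 (11.32 against 11.49 to 11.59) and Cebpg (10.40 against 10.91 to 11.21). Wild-type VILI replicate 3 was low in L3hypdh (2.54 against 3.35 to 3.63), Idh2 (9.88 against 10.10 to 10.20), Aldh1a7 (12.54 against 12.72 to 12.81) and the xenobiotic list, at -0.26 against -0.14 to -0.10. Knockout VILI replicate 1 was high in Xpo6 (9.69 against 9.55 to 9.59) and knockout VILI replicate 2 was low in Fzd3 (6.94 against 7.09 to 7.13).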

How the results depend on the processing

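The count of genes called for the mean, 4520, was 3842 to 4609 under another scaling, filter, probe set rule, moderation or an additive model, 4282 without the 2 SB arrays that stood apart (3627 of the genes shared), and 3551 to 4659 with 1 array left out. Array weights, whose fit gave a convergence warning, raised it to 6572, the calls under 1.5-fold from 2719 to 4693, wild type to 4244 and the knockout to 5522, and lowered the calls in neither genotype from 1455 to 563. With 1 array left out the calls under 1.5-fold were 1898 to 2643, those in neither genotype 910 (without wild-type SB replicate 3) to 1695, wild type 933 to 2052 and the knockout 1232 to 3301. The difference of responses passed in 1 gene with no filter, 123 with array weights, 9 without the 2 SB arrays and 0 to 6 with 1 array left out. With the replicate block 3936 genes passed, 3879 of them shared. Replicate numbers do not pair the arrays: 3 of 18 same-number correlations of deviations were over 0.1 (-0.63 to 0.40) and 3 arrays correlated best with their own number. As the mean of probe sets, D10Wsu102e was 0 (adjusted p = 0.991), Cebpg 0.18 (0.460) and Acsl4 -0.14 (0.509). Over 213 named genes and 22 settings, 4583 values kept direction and call, 82 lost the call and 3 reversed. Of the list medians 915 stayed within the spread and 53 moved. Median centring raised the share of rises among calls from 38.5% to 47.3%. Signals near the filter level bound no fold, and among called genes read by more than 1 probe set, 25.3% had signs that differed between them. With 3 arrays per genotype and treatment, differences between genotypes are resolved least. Causes were not tested.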
